A study of Mus musculus with 36 samples.

Results

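The transcripts described here were those high in restricted progenitors (RPs) and low in hematopoietic stem cells (HSCs) of mouse bone marrow. They were chosen by their counts scaled to 1000000 per library (CPM): a mean of at least 10 CPM over the RP libraries, at least 4 times the mean over the HSC libraries, and a lowest RP library above the highest HSC library. Of 138835 transcripts in the table, 80388 had a count in the libraries used, and 87 met the rule. A further 4 met the thresholds and were left out by identifier, as the rule asks. Since these values chose the transcripts, the difference between RPs and HSCs is given below as a description, without a test. All genotypes of a cell type were pooled for the choice, so the differences between genotypes were tested, although the condition of no overlap limits how far the libraries of a cell type can spread.

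RNA-seq libraries were made from C57BL/6 mice of 8 weeks that all carried the Vav-driven Cre recombinase, which is active in blood-forming cells. Control animals had intact Dnmt3a and Tet2 (Dnmt3a+/+; Tet2+/+), Tet2KO animals carried Tet2fl/fl, and Dnmt3aKO animals Dnmt3afl/fl, to which the labels add "or +" without saying for which animals. HSCs were sorted as Lin-, cKit+, Sca1+, CD150+, CD48- cells and RPs by the opposite pair of surface proteins, CD150- and CD48+, within the same compartment. For HSCs there were 3 Control, 3 Dnmt3aKO and 4 Tet2KO libraries, and for RPs 4 Control and 4 Tet2KO libraries. There was no Dnmt3aKO RP group. Each library came from pooled male and female animals, so the spread given is between pools.

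CD150 and CD48 belong to the SLAM family of surface receptors, and their pattern separates long-lived stem cells from the progenitors that follow them. The CD48-positive progenitors divide more often, renew themselves less and lean towards the myeloid or lymphoid lineages. DNMT3A writes methyl groups on cytosine and TET2 oxidises them. Loss of either gene is known to favour stem cells over their normal neighbours and to disturb differentiation. Neither the count table nor the gene tables used here link a transcript identifier to its gene. The 87 transcripts are therefore given no roles, no sequence is printed for them, and the sorted populations could not be checked against marker genes such as those of stem cells, myeloid or lymphoid progenitors. At most 2 higher and 2 lower identifiers are named for a comparison.

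HSC libraries held 4625653 to 9366421 counts and RP libraries 3721009 to 7649318. At an equal depth of 3721009 counts, RP libraries held 39880 to 44910 transcripts. Control HSC 4, with 31276, and Dnmt3aKO HSC 4, with 25496, held fewer than any other HSC library. Tet2KO HSC 4 held 33540, close to the lowest of the other 7, which ranged from 33584 to 44049. Counts and medians that turn on Control HSC 4 are given with and without it.

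The 87 transcripts made up about 1% of the counts in RPs and 0.0848% to 0.292% in HSCs. They took 1.14% ± 0.17 (SD, n = 4) of the counts in Control RPs and 0.94% ± 0.09 (n = 4) in Tet2KO RPs. In HSCs they took 0.172% ± 0.105 (n = 3) in Control, 0.1004% ± 0.023 (n = 3) in Dnmt3aKO and 0.119% ± 0.012 (n = 4) in Tet2KO. The wide spread of Control HSCs came from 1 library. Control HSC 4 was at 0.292% (95% exact binomial interval 0.288 to 0.296, counting error only), while Control HSC 2 and 3 were at 0.0977% and 0.126%. The other 9 HSC libraries lay between 0.0848% and 0.130%. Summed levels were 6.61 times higher in Control RPs than in Control HSCs, 10.2 times without Control HSC 4, and 7.88 times higher in Tet2KO RPs than in Tet2KO HSCs. In sorted bulk samples a change in the number of cells that express a transcript and a change in the amount per cell cannot be told apart.

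**Figure D1:**
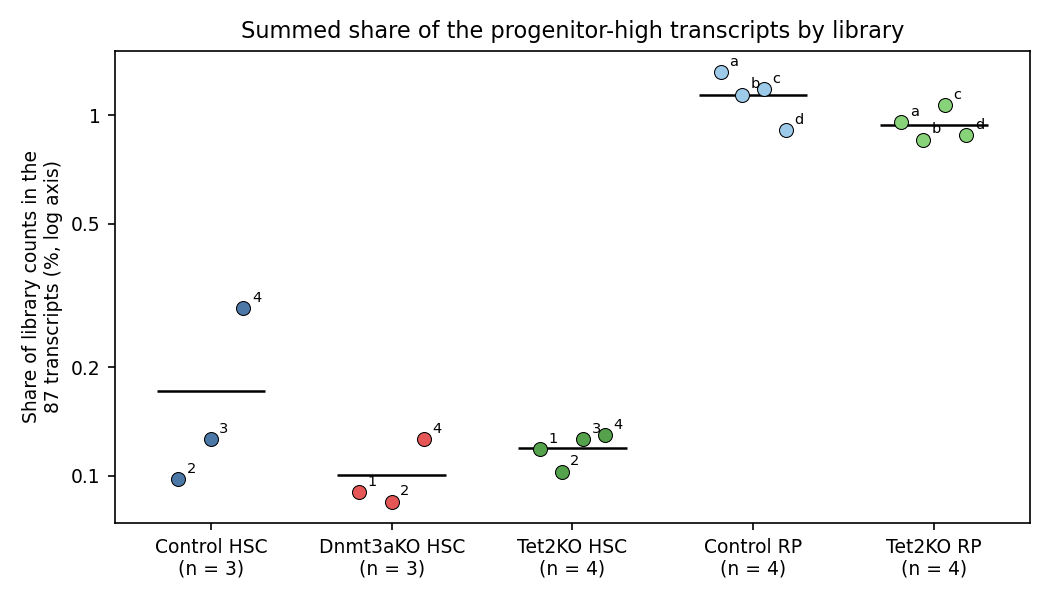
Share of each library's counts (percent, log axis) held by the 87 RP-high transcripts, by group, with a point per library labelled by its replicate and a line at the group mean. The 8 RP libraries lie between 0.855% and 1.31%, and Control HSC 4, at 0.292%, is the highest of the 10 HSC libraries.

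Levels within the set were unequal. Mean RP levels ran from 10.1 to 2149 CPM with a median of 36.1. In RPs 1 transcript exceeded 1000 CPM, 23 reached 100 CPM and 28 were under 20 CPM. The most abundant transcript gave 20.7% of the summed RP level, and the 10 most abundant together gave 60.9%. The ratio of mean RP to mean HSC level had a median of 9.12, with quartiles at 5.52 and 17.0. It was at least 10 for 38 of the transcripts, at least 20 for 18 and at least 100 for 6. Few were silent in stem cells: 45 had a count in all 10 HSC libraries, 11 had none in at least 5 of them, and every one had at least 1 count in some HSC library.

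At the edge of the rule the set faded gradually. The lowest ratio inside was 4.04, and among transcripts that failed only by the ratio the highest was 3.97. Of the 87, 17 had a ratio under 5, and 50 of the 130 transcripts that failed only by the ratio had one of at least 3. The lowest mean RP level inside was 10.1 CPM and the highest outside 9.94. The smallest gap between the lowest RP and the highest HSC library inside was a ratio of 1.01, against 0.997 for the nearest transcript outside. The set also depended on which libraries entered the rule. Control libraries alone, which are fewer, chose 166 transcripts, of which 74 were among the 87.

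**Figure D2:**
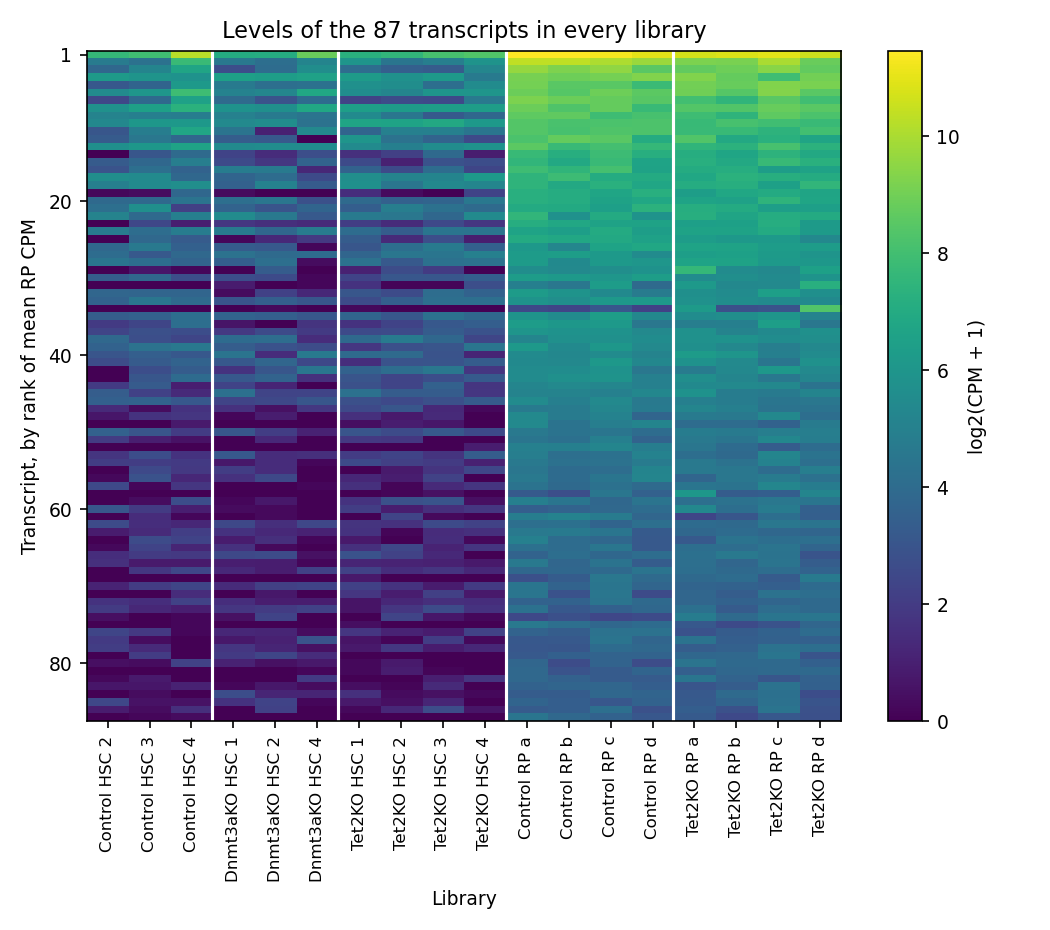
Levels of the 87 RP-high transcripts, as log2(CPM + 1) in color, in the 10 HSC and 8 RP libraries (columns, white lines between groups), with rows ordered by mean RP level. Rows turn from dark to light between HSC and RP columns by the choice of the transcripts, and Control HSC 4 is lighter than the other HSC columns in most of the top 10 rows.

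ENSMUST00000038845.9 was the most abundant of the set. It was at 2820, 2739, 2496 and 2011 CPM in Control RPs a to d and at 1714, 1865, 2029 and 1517 CPM in Tet2KO RPs a to d. In HSCs it was at 197, 247 and 1187 CPM in Control 2, 3 and 4, at 130, 137 and 464 CPM in Dnmt3aKO 1, 2 and 4, and at 154, 183, 277 and 321 CPM in Tet2KO 1 to 4. The RP groups overlapped by a narrow margin, and in every HSC genotype the library numbered 4 was the highest. The Control HSC mean was 544 ± 558 CPM (SD, n = 3) with Control HSC 4 and 222 CPM without it, and that library alone reached 55.2% of the mean RP level.

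The shift in Control HSC 4 lay mainly in the abundant transcripts. Of the 10 most abundant, 7 were highest in Control HSC 4 among all HSC libraries, as were 16 of the other 77. Apart from the 10 most abundant, the set took 0.0700% of the counts in Control HSC 4 and 0.0325% to 0.0626% in the other 9 HSC libraries. At the other end, Control HSC 4 was under every HSC library not numbered 4 for 9 of the 87, Dnmt3aKO HSC 4 for 24 and Tet2KO HSC 4 for 13. No count was found for 11, 22 and 17 of the 87 in these 3 libraries, and for 8 to 23 in the other 7.

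**Figure D3:**
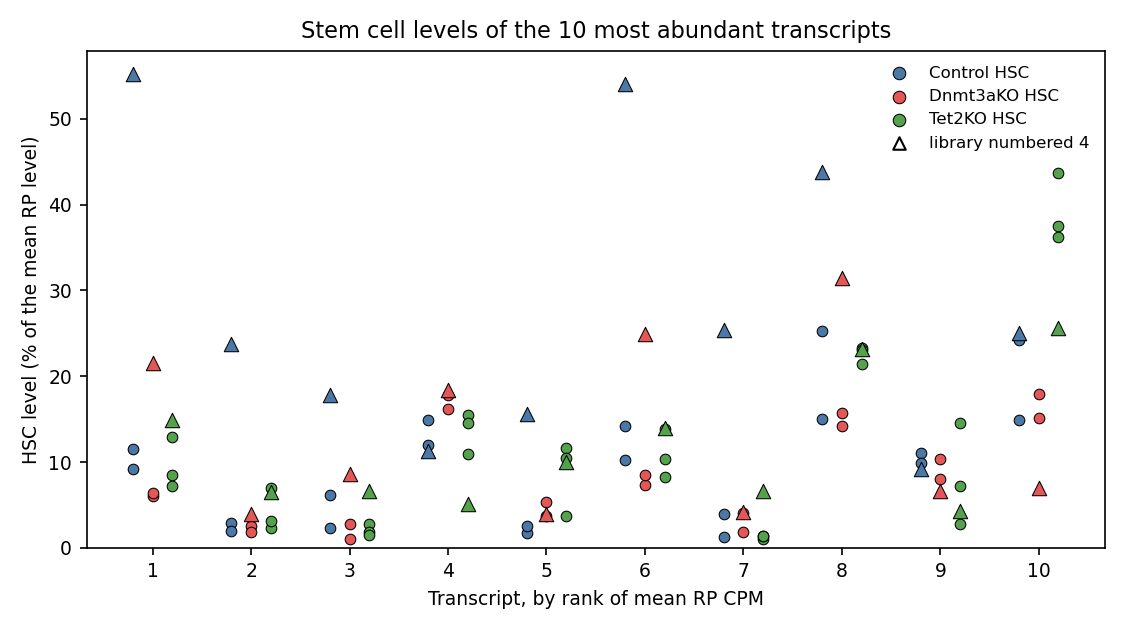
HSC levels of the 10 most abundant RP-high transcripts (ranks 1 to 10 by mean RP CPM), each as a percent of the transcript's mean RP level, with a point per library, colored by genotype, and triangles for libraries numbered 4. The Control HSC 4 triangle is the highest HSC point for 7 of the 10 and stands at 55.2% for rank 1.

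ENSMUST00000200235.1 had the largest ratio of mean RP to mean HSC level, 1364, and was the most uneven of the set among RPs. It was at 4.53, 4.03, 7.78 and 3.66 CPM in Control RPs a to d, and at 74.8, 6.04, 6.71 and 326 CPM in Tet2KO RPs a to d. Over the 10 HSC libraries it had 2 counts, so that on summed counts the ratio was 2047 (95% counting interval 566 to 16910). The level in RPs thus came mostly from Tet2KO RP a and d, while Tet2KO RP b and c lay within the range of Control RPs. Without Tet2KO RP d the ratio was 387. Without both, the mean RP level was 5.46 CPM, under the 10 CPM of the rule, and the ratio was 137.

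Most of the set was steadier among RPs. The highest RP library exceeded the lowest by a median of 2.59 times, with quartiles at 2.06 and 3.30. A spread of at least 5 times was found for 5 of the 87 and of at least 10 times for 3. In all 3 the highest RP library was Tet2KO RP a or d. Beside ENSMUST00000200235.1, 1 was at 66.0 and 36.7 CPM in Tet2KO RPs a and d and at 5.64 to 21.97 CPM in the other 6 RP libraries, and ENSMUST00000087033.5 was at 72.2 and 147 CPM there and at 14.4 to 80.7 CPM in the other 6. Control RP a was the highest RP library for 22 of the 87 and Tet2KO RP c for 19, and the lowest were most often Control RP d, for 18, and Tet2KO RPs c and d, for 17 each.

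A comparison of Dnmt3aKO with Control HSCs asked whether the RP-high transcripts differ in stem cells that lack Dnmt3a. All 87 were among the 26820 transcripts tested, in 1 fit of edgeR (quasi-likelihood test, p-values adjusted by Benjamini-Hochberg, threshold 0.05). None of the 87 passed (smallest adjusted p = 0.115, edgeR), beside 0.0149% of all transcripts tested. At an unadjusted p under 0.05 there were 22, of which 20 were lower and 2 higher in Dnmt3aKO HSCs. That is 25.3% of the 87, beside 7.75% of all tested. All 87 passed the filter on low counts with the RP libraries included, but only 71 passed it on HSC libraries alone, so the others entered the HSC comparisons through the cells where they were chosen to be high. In a fit of the HSC libraries alone, 9 of the 71 were lower and 0 higher at an unadjusted p under 0.05, or 12.7% beside 4.54% of all tested there. In a fit of the compared groups alone, 4 of 57 were lower and 0 higher, or 7.02% beside 2.65%. DESeq2 called 5 of the 87, 1 higher and 4 lower, beside 0.663% of all, and edgeR without a filter on low counts called 14, beside 0.362%. The last share is over 80388 transcripts with a count, of which 26820 passed the filter, while all 87 did. Shares without the filter, here and for the later comparisons, are thus not like for like. The libraries of both groups did not overlap for 12 that were lower (13.8%, beside 3.75% of all tested) and 2 that were higher (2.30%, beside 3.63%).

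The log2 fold changes of the 87 had a median of -0.75, beside a median of 0.00 over all transcripts tested. Of the 87, 59 were below 0 (67.8%, beside 49.5% of all tested), 25 above and 3 without a count in either group. The median of -0.75 rested on Control HSC 4. Without that library it was 0.00, with 39 below 0 and 43 above, and 12 were lower and 2 higher at an unadjusted p under 0.05 (16.1%, beside 8.09% of all tested without it). There was then no overlap for 15 lower (beside 11.9%) and 4 higher (beside 5.78%). These counts are over all 87, including those that did not pass the filter on HSC libraries alone. Without all 3 HSC libraries numbered 4 the median was -0.22, with 50 below 0 and 31 above. With transcripts that lack counts in a group set to their bound, and those at or under 3 counts in both left out, the median was -0.76.

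Of the lower transcripts, ENSMUST00000043503.10 had the smallest p. It was at 7.48, 2.94 and 0.963 CPM in Control HSCs 2, 3 and 4, and at 0.277, 0.216 and 0 CPM in Dnmt3aKO HSCs 1, 2 and 4. With 3 counts over the Dnmt3aKO libraries it was 21.95 times higher in Control HSCs (95% counting interval 7.17 to 109), and it missed the threshold (adjusted p = 0.115, edgeR). The difference passed in 2 of 12 alternatives, DESeq2 among them (adjusted p = 0.00904). In Tet2KO HSCs the transcript lay between 0.912 and 3.26 CPM, above every Dnmt3aKO library.

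ENSMUST00000035938.2, chosen after its values were seen, was the steadiest of the lower transcripts in Control HSCs. It was at 12.9, 12.6 and 12.4 CPM in Control HSCs 2, 3 and 4 and at 0.277, 3.68 and 1.45 CPM in Dnmt3aKO HSCs 1, 2 and 4. The groups did not overlap, and the difference, a log2 fold change of -2.82 (SE 0.63), missed the threshold (adjusted p = 0.198, edgeR). Over 13 alternatives the adjusted p ran from 2.18e-04 to 1, with 2 past the threshold, DESeq2 among them (adjusted p = 0.00184). The Tet2KO HSC libraries, at 7.42, 5.21, 15.9 and 11.3 CPM, lay above all Dnmt3aKO and around the Control HSC libraries. In RPs it was at 26.4 to 77.3 CPM in Control and 45.3 to 88.1 CPM in Tet2KO.

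ENSMUST00000202328.1 had the smallest p among the higher transcripts. It had 2 counts over the Control HSC libraries, both in replicate 3, and was at 5.55, 1.30 and 1.31 CPM in Dnmt3aKO HSCs 1, 2 and 4. The ratio was 25.9 (95% counting interval 6.84 to 219; adjusted p = 0.243, edgeR). The difference passed the threshold in 2 of 10 alternatives, DESeq2 among them (adjusted p = 0.0439). The transcript did not pass the filter on HSC libraries alone and was tested only because of its RP counts. The level remained under the 5.58 to 18.04 CPM of the RP libraries, as the rule requires.

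Tet2KO HSCs were compared with the same Control HSC libraries, so both comparisons share their controls. None of the 87 passed in edgeR (smallest adjusted p = 0.128), beside 0.198% of all transcripts tested. At an unadjusted p under 0.05 there were 14, 10 lower and 4 higher, or 16.1% of the 87 beside 11.2% of all. Of all tested, 2.95% were lower and 8.3% higher. In a fit of the HSC libraries alone, 4 of 71 were lower and 0 higher, or 5.63% beside 6.44% of all tested there, and in a fit of the compared groups alone 4 of 64 were lower and 0 higher, or 6.25% beside 7.64%. These shares are near the background when direction is ignored. Shares by direction over all tested are not given for the smaller fits. DESeq2 called 3, beside 2.58% of all, and edgeR without the filter called 11, beside 1.25%. There was no overlap for 1 lower transcript (1.15%, beside 1.74%) and 2 higher ones (2.30%, beside 6.2%). The median log2 fold change was -0.23, beside 0.10 over all tested, with 53 below 0 (60.9%, beside 44.4% of all) and 34 above. Without Control HSC 4 it was 0.08, with 40 below 0 and 47 above. The direction at an unadjusted p under 0.05 also turned, to 3 lower and 8 higher (12.6%, beside 9.4% of all tested without that library). There was then no overlap for 2 lower (beside 6.63%) and 5 higher (beside 8.96%). These counts are over all 87, of which only 71 passed the filter on HSC libraries alone. A fit of HSC libraries alone was not made without Control HSC 4.

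ENSMUST00000027121.14 had the smallest p of the lower transcripts. It had no count in any Tet2KO HSC library and was at 0, 3.10 and 0 CPM in Control HSCs 2, 3 and 4. The Control level came from replicate 3 alone. Against a floor of 3 counts over the Tet2KO HSC libraries the transcript was at least 10.6-fold lower in Tet2KO HSCs (adjusted p = 0.128, edgeR). The difference passed in 2 of 13 alternatives, DESeq2 among them (adjusted p = 0.00636). With counts only in Control HSC 3 of the groups compared, the transcript was tested only because of its Dnmt3aKO HSC and RP counts. ENSMUST00000087033.5 had the smallest p of the higher transcripts. It had no count in Control HSCs and was at 2.17, 0.130, 0.107 and 5.83 CPM in Tet2KO HSCs 1 to 4. Against the same floor over the Control libraries it was at least 9.64-fold higher (adjusted p = 0.242, edgeR), with most of its counts in replicates 1 and 4. The difference passed in 2 of 11 alternatives, DESeq2 among them (adjusted p = 0.0256). This transcript did not pass the filter on HSC libraries alone and was tested only because of its RP counts.

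Between Dnmt3aKO and Tet2KO HSCs, differences in the set came closest to the threshold. None of the 87 passed in edgeR (smallest adjusted p = 0.0539), beside 0.138% of all transcripts tested. At an unadjusted p under 0.05 there were 18, 15 lower and 3 higher in Dnmt3aKO, or 20.7% of the 87 beside 11% of all. In a fit of the HSC libraries alone, 6 of 71 were lower and 2 higher, or 11.3% beside 6.72% of all tested there, and in a fit of the compared groups alone the same counts were found of 63, or 12.7% beside 6.36%. DESeq2 called 8, 7 lower and 1 higher in Dnmt3aKO, beside 2.15% of all, and edgeR without the filter called 12, beside 0.935%. These calls and the 18 are over all 87, of which only 71 passed the filter on HSC libraries alone. The others entered through the RPs where they were chosen to be high. There was no overlap for 5 that were lower in Dnmt3aKO (5.75%, beside 5.46%) and for 2 that were higher (2.30%, beside 1.88%), shares near those of all transcripts. The median log2 fold change was -0.25, beside -0.13 over all tested, with 51 below 0 (58.6%, near the 56.7% of all) and 35 above. It was -0.52 without Dnmt3aKO HSC 4, -0.16 without Tet2KO HSC 3 and -0.14 without Tet2KO HSC 4.

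ENSMUST00000032259.5 was lower in each Dnmt3aKO than in each Tet2KO HSC library. It was at 11.9, 15.6 and 4.93 CPM in Dnmt3aKO HSCs 1, 2 and 4 and at 49.0, 33.5, 35.6 and 70.7 CPM in Tet2KO HSCs 1 to 4. The difference was -2.07 on the log2 scale (SE 0.41) and narrowly missed the threshold (adjusted p = 0.0539, edgeR; 2.61e-05 to 0.601 over 14 alternatives, 3 of them past the threshold). Control HSCs were at 47.5, 44.3 and 13.3 CPM in replicates 2, 3 and 4, so that replicate 4 fell within the Dnmt3aKO range and the others within that of Tet2KO.

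ENSMUST00000172148.1, chosen after its values were seen, showed the same order with less spread. It was at 40.9, 48.4 and 18.7 CPM in Dnmt3aKO HSCs 1, 2 and 4, at 40.2, 65.5 and 67.7 CPM in Control HSCs 2, 3 and 4, and at 102, 98.1, 118 and 69.3 CPM in Tet2KO HSCs 1 to 4. Tet2KO lay above Control and Dnmt3aKO without overlap, while Dnmt3aKO and Control overlapped. For this transcript the ratio of mean RP to mean HSC level, 4.04, was the lowest of the 87. The log2 fold change of Dnmt3aKO against Tet2KO was -1.30 (SE 0.27, adjusted p = 0.0587, edgeR; 1.36e-04 to 0.601 over 14 alternatives, 4 of them past the threshold).

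In the other direction, ENSMUST00000027121.14 was at 2.91, 4.32 and 1.74 CPM in Dnmt3aKO HSCs 1, 2 and 4 and had no count in Tet2KO HSCs. It was at least 26.5-fold higher in Dnmt3aKO (adjusted p = 0.0541, edgeR; 2.90e-07 to 0.601 over 14 alternatives, 4 of them past the threshold). In RPs its Tet2KO libraries, at 13.3, 13.7, 20.8 and 6.94 CPM, surrounded the 8.24 to 11.7 CPM of Control.

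**Figure D4:**
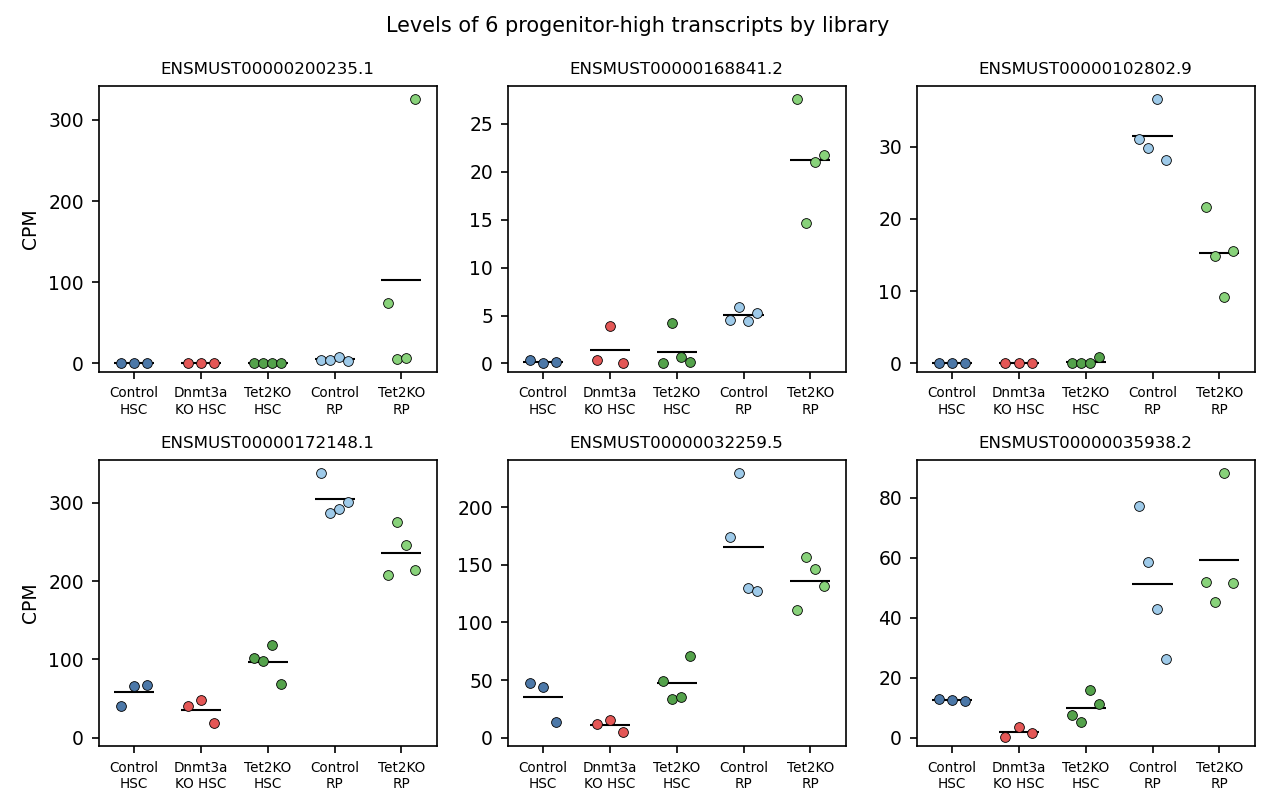
Levels (CPM, linear axes from 0) of 6 named RP-high transcripts in all 18 libraries, by group, with a point per library and a line at the group mean. In ENSMUST00000200235.1 the Tet2KO RP mean rests on 2 libraries, at 74.8 and 326 CPM, while in ENSMUST00000168841.2 all 4 Tet2KO RP libraries lie above the 4 Control RP libraries.

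Tet2KO against Control RPs asked whether loss of Tet2 alters these transcripts in the cells where they are high. None of the 87 passed in edgeR (smallest adjusted p = 0.16), beside 0.134% of all transcripts tested. At an unadjusted p under 0.05 there were 2, both higher, or 2.30% of the 87 beside 3.82% of all. This count depended on the libraries fitted: with the 8 RP libraries alone, which no longer share their estimate of spread with HSCs, 16 were lower and 4 higher, or 23% beside 7.13% of all tested there. DESeq2 called 0, beside 0.543% of all. Without the filter, edgeR called 1, which was higher, beside 0.3% of all. There was no overlap for 6 that were lower in Tet2KO RPs, or 6.9% of the 87, beside 1.41% of all tested and 2.03% of the 8320 tested transcripts with at least 10 CPM in RPs. There was no overlap for 3 that were higher, or 3.45%, beside 3.09% and 2.3%. Of the 6 lower ones, 1 had means of 17.3 CPM in Control and 8.06 CPM in Tet2KO RPs. It met the 10 CPM of the rule only through Control RPs, so the lower count in part used values that chose the set. The median log2 fold change was -0.14, beside 0.03 over all tested and -0.07 over the 8320. Of the 87, 58 were below 0 (66.7%, beside 47.6% of all tested and 60% of the 8320) and 29 above. Leaving out single RP libraries gave medians of -0.25 (without Control RP d) to -0.06 (without Control RP c). Summed levels overlapped between the genotypes, at 0.911% to 1.31% of counts in Control and 0.855% to 1.07% in Tet2KO RPs.

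ENSMUST00000168841.2, chosen after its values were seen, was higher in each Tet2KO than in each Control RP library. It was at 4.53, 5.91, 4.47 and 5.23 CPM in Control RPs a to d and at 27.5, 14.7, 21.0 and 21.7 CPM in Tet2KO RPs a to d. The log2 fold change was 2.00 (SE 0.92) and missed the threshold in the fit of all 18 libraries (adjusted p = 1, edgeR; 0.00916 to 1 over 12 alternatives). It passed when the 8 RP libraries were fitted alone (adjusted p = 0.00916, edgeR). In HSCs it was at most 4.17 CPM, in Tet2KO HSC 2. Its mean was 5.04 CPM in Control RPs and 21.25 CPM in Tet2KO RPs, so it met the 10 CPM of the rule only through Tet2KO RPs. The test between the genotypes thus used values that chose this transcript.

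ENSMUST00000200235.1 had the smallest p of the higher transcripts, with a difference of 4.37 on the log2 scale (SE 1.01; adjusted p = 0.16, edgeR; 3.83e-16 to 1 over 12 alternatives, 3 of them past the threshold). As given above, its high values were those of Tet2KO RPs a and d, without which it would not have met the 10 CPM of the rule. Its test thus used values that chose it.

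On the lower side, ENSMUST00000102802.9, chosen after its values were seen, had 5 counts over the 10 HSC libraries, all in Tet2KO HSC 4. It was at 31.1, 29.8, 36.5 and 28.1 CPM in Control RPs a to d and at 21.6, 14.9, 9.25 and 15.5 CPM in Tet2KO RPs a to d. The groups did not overlap, and the log2 fold change of -1.12 (SE 0.66) missed the threshold (adjusted p = 1, edgeR; 0.205 to 1 over 12 alternatives).

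ENSMUST00000172148.1 had the smallest p of the lower transcripts in RPs. It was at 339, 288, 292 and 301 CPM in Control RPs a to d and at 207, 275, 247 and 215 CPM in Tet2KO RPs a to d. The groups did not overlap, with a log2 fold change of -0.45 (SE 0.24), and the difference missed the threshold (adjusted p = 1, edgeR).

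The Tet2 effect in RPs was then set against that in HSCs as an interaction, in which positive values mean a higher effect in RPs. None of the 87 passed in edgeR, nor did any of the transcripts tested (0%). At an unadjusted p under 0.05 there were 8, 4 in each direction, or 9.2% of the 87 beside 5.35% of all. DESeq2 called 0, beside 0.0567% of all, and edgeR without the filter called 3, beside 0.3%. The median was 0.12, beside -0.10 over all tested, with 48 above 0 and 39 below (44.8%, beside 55.4% of all). Without Control HSC 4 it was -0.14, with 33 above 0 and 54 below. At an unadjusted p under 0.05, 2 were then higher and 7 lower (10.3%, beside 5.72% of all tested without that library). These shares are over all 87, of which only 71 passed the filter on HSC libraries alone. The others entered through the RPs where they were chosen to be high, so no share is read as a result about the set.

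ENSMUST00000172148.1 had the smallest p on the negative side. Its Tet2KO libraries lay above Control in HSCs and below Control in RPs, without overlap in either cell type. In HSCs the margin was narrow, 69.3 CPM in Tet2KO HSC 4 against 67.7 CPM in Control HSC 4. The interaction was -1.0 on the log2 scale (SE 0.35) and missed the threshold (adjusted p = 0.825, edgeR; 0.293 to 1 over 20 alternatives). ENSMUST00000027121.14 had the smallest p on the positive side (adjusted p = 0.825, edgeR; 0.00646 to 1 over 20 alternatives). It had no count in Tet2KO HSCs and, among Control HSCs, counts in replicate 3 alone.

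**Figure D5:**
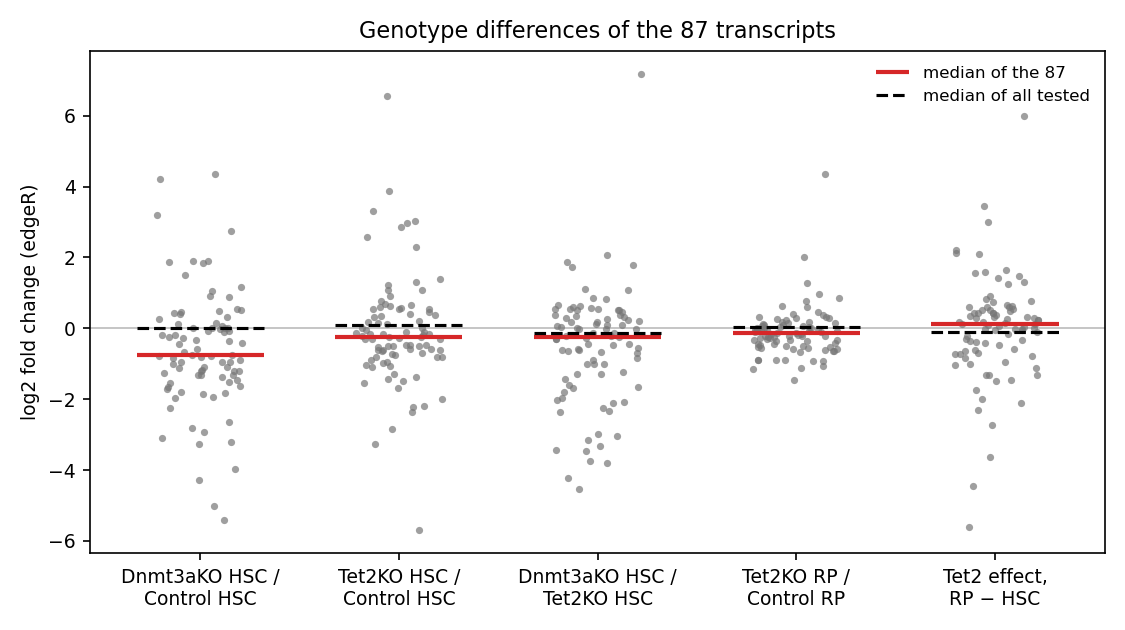
log2 fold changes (edgeR) of the 87 RP-high transcripts in each comparison, with a gray point per transcript, a red line at their median and a dashed line at the median of all transcripts tested. The medians of the 87 are -0.75, -0.23, -0.25, -0.14 and 0.12 from left to right, and the points spread least for Tet2KO against Control RPs, with quartiles at -0.47 and 0.11.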

How the data were processed

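Transcripts were counted in 10 HSC and 8 RP libraries. The deposited table holds raw read counts per Ensembl transcript, whole numbers without normalization, from the values. Per the submitters' processing notes, the build was mm10 and the tools named include HTSeq 0.8.0, featureCounts, STAR 2.0.4 and edgeR 3.9. Which of them made the counts is not given in the sources used here. Counts of transcripts with shared exons, near-identical copies or antisense partners are therefore uncertain. Of 36 columns, 18 matched no sample and were not used, and the 18 ATAC-seq samples were not analysed here. HSC columns name genotype and number only. Numbers in RP columns differed from those of the titles. RP libraries were therefore assigned to groups only and are lettered a to d by column order.

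CPM used column totals. Tests used edgeR 4.0.16 in R 4.3.3 (filterByExpr with minimum count 10 and total 15, TMM scaling, quasi-likelihood, group as the only term, all 18 libraries), checked on simulated data. The check placed changes only in well-counted transcripts and covered only some of the comparisons. It does not cover transcripts with few HSC counts. DESeq2 1.42.0, RLE scaling, no filter, smaller fits, single libraries left out and a replicate block were alternatives. Named transcripts were the highest mean RP level, the largest ratio and the smallest p in each direction of each comparison, with 4 more as stated. The rule's parts that need gene names, its marker and pathway lists included, were not applied. The members and lists were chosen with earlier results of these data known. Folds against a group without counts use a floor of 3 counts over the group; with 1 to 3 counts an exact 95% interval is given. Both cover counting error only.

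Same-numbered HSC libraries of different genotypes were not taken as pairs. The chi-square per degree of freedom between libraries of a group was 7.99 or more, and each counted as 1 sample.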

Additional observations from a re-analysis of the deposited data

Results flagged for a closer look

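A value in a group of 4 libraries was set apart by its gap to the nearest library, divided by the group's range. This ratio had to exceed Dixon's 95% critical value, which chance gives in about 1 of 20 groups of normally distributed values. Over 261 sets (87 transcripts in 3 groups) this held for 21, or 8.05%: 11 in Tet2KO HSCs, 4 in Control RPs and 6 in Tet2KO RPs. Among the named transcripts it held for 5 values. In Tet2KO HSCs, ENSMUST00000102802.9 was at 0.911 CPM (5 counts) in replicate 4 and ENSMUST00000168841.2 at 4.17 CPM in replicate 2. In replicate 1, ENSMUST00000200235.1 was at 0.181 CPM (1 count) and ENSMUST00000202328.1 at 1.99 CPM. For ENSMUST00000102802.9 and ENSMUST00000200235.1 the other 3 libraries had no count. The gap then equals the range whatever the value, so the rate of 1 in 20 does not hold for such sets. In Tet2KO RPs, ENSMUST00000035938.2 was at 88.1 CPM in replicate c, where the other 3 libraries lay between 45.3 and 52.0 CPM.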

How the results depend on the processing

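The set of 87 became 183 transcripts at a ratio of at least 2, 49 at a ratio of at least 8, 134 with overlap allowed and 166 from Control libraries alone. Leaving out single libraries gave 83 to 105 (105 without Control HSC 4). No transcript of the set was called in any comparison in the fit reported, and the cause of calls under other settings was not tested. DESeq2 called 5 for Dnmt3aKO against Control HSCs, 3 for Tet2KO against Control HSCs and 8 for Dnmt3aKO against Tet2KO HSCs. Without the filter edgeR called 14, 11 and 12 for these, 1 for Tet2KO against Control RPs and 3 for the interaction. RLE scaling called 3 for Dnmt3aKO against Tet2KO HSCs. Without the 3 HSC libraries numbered 4 there was 1 call for Tet2KO against Control HSCs and 1 for Dnmt3aKO against Tet2KO HSCs. Fitting RPs alone called 1. Leaving out single libraries gave 0 to 1 for these 3 comparisons (Tet2KO HSC replicate 4, or Tet2KO RP b or c, left out) and 0 for Dnmt3aKO against Control HSCs and the interaction. ENSMUST00000027121.14 had no value for Tet2KO against Control HSCs without Control HSC 3, since neither group then had a count.

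With the replicate number as a block in a fit of HSC libraries alone, 0 of the 71 tested were called in the 3 HSC comparisons, as without the block. Deviations of same-numbered libraries from their group means had correlations of 0.221 to 0.295 for the 3 pairs numbered 4 and 0.0405 to 0.0991 for the others. Of the 10 libraries, 5 correlated best with their own number. Since not every pair was over 0.1, the numbers were not taken to pair the samples. What the libraries numbered 4 share was not tested. With transcripts that lack counts in a group set to their bound, the median log2 fold change was -0.24 for Tet2KO against Control HSCs and -0.21 for Dnmt3aKO against Tet2KO HSCs. Depth limits transcripts with few HSC counts most.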

Other observations

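Without the 3 HSC libraries numbered 4 the same rule chose 122 transcripts, of which 83 were among the 87. Of the 39 added, the highest HSC library was Control HSC 4 for 26, Tet2KO HSC 4 for 10 and Dnmt3aKO HSC 4 for 2.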
